A study of Mus musculus with 15 samples.

Results

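Mucosal antibody passes from B cells to plasma cells and then across the epithelium, and 9 genes along this route were followed in the cecum of microbiome-depleted mice. These were Cd79a, Cd79b, Ms4a1 and Ighm of the B cell, Mzb1 and Derl3 of the antibody-secreting cell, Igha and Igkc of the antibody itself, and Pigr of the epithelium that exports it. They were taken by name from 45804 usable rows of the deposited table, and all 9 were present. RNA came from the emptied ceca of 7 AIMD and 8 vehicle-treated mice, all wild-type C57BL/6 males labelled as 20 weeks old. The study's text gives a younger age at the start, which with the 30 days comes to less than the labelled age. For 30 days the AIMD (antibiotic-induced microbiome depletion) group was gavaged with ampicillin, vancomycin, metronidazole, neomycin and amphotericin B, and the vehicle group with water. Each library came from 1 mouse.

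In the gut wall, resting B cells carry IgM on their surface next to the CD79A and CD79B signaling chains. After activation they can switch to IgA and mature into plasma cells, which lose most surface B-cell molecules and fill with antibody transcripts. The polymeric immunoglobulin receptor, encoded by Pigr, binds dimeric IgA under the epithelium and carries it to the lumen. In a whole-tissue sample, fewer cells of a type and less RNA per cell cannot be told apart.

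Values are FPKM, that is, reads on a gene per length and per scaled depth. The depth implied by the values was not simply each mouse's reads on genes. It was 13139115 against 11244651 reads in AIMD replicate 6 and 5162136 against 6486319 reads in vehicle replicate 5. The groups were tested on the scale of log2(FPKM + 0.5) by limma, adjusting for 11971 genes by the Benjamini–Hochberg method at a threshold of 0.05. Of the 9 genes, 8 passed the filter on low values. Cd79b, Mzb1 and Pigr (3 of 8) fell in the AIMD group, and 0 rose. Over all tested genes 16.6% were called lower and 19.4% higher. The median log2 fold change was -0.66 over the 8 tested members and 0.01 over all tested genes. AIMD libraries were deeper, with 8679685 to 18108594 reads on genes against 4372429 to 14405961 for vehicle (two-sided exact permutation test, p = 0.0345). By their clock genes the mice also split into cluster A, with 3 AIMD and 4 vehicle mice, and cluster B, with 4 of each. The paper's test included time of sacrifice as a factor, and the main test here does not. The sources used here give no such time for single mice, so values within these clusters are also given. Cluster A held AIMD replicates 1 to 3 and vehicle replicates 1 to 4, so the clusters follow the order of the replicate numbers.

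In the vehicle group the mean FPKM ran from 497 for Pigr and 338 for Igkc through 58.3 for Igha, 33.7 for Ighm and 30.4 for Cd79b to 16.2 for Mzb1, 8.29 for Cd79a, 4.12 for Ms4a1 and 0.484 for Derl3. Ighm and Cd79b, neighbors in this order, differed by less than their SD. Per unit of length, the epithelial receptor and the kappa constant region stood far above the chains of the B-cell receptor.

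**Figure D1:**
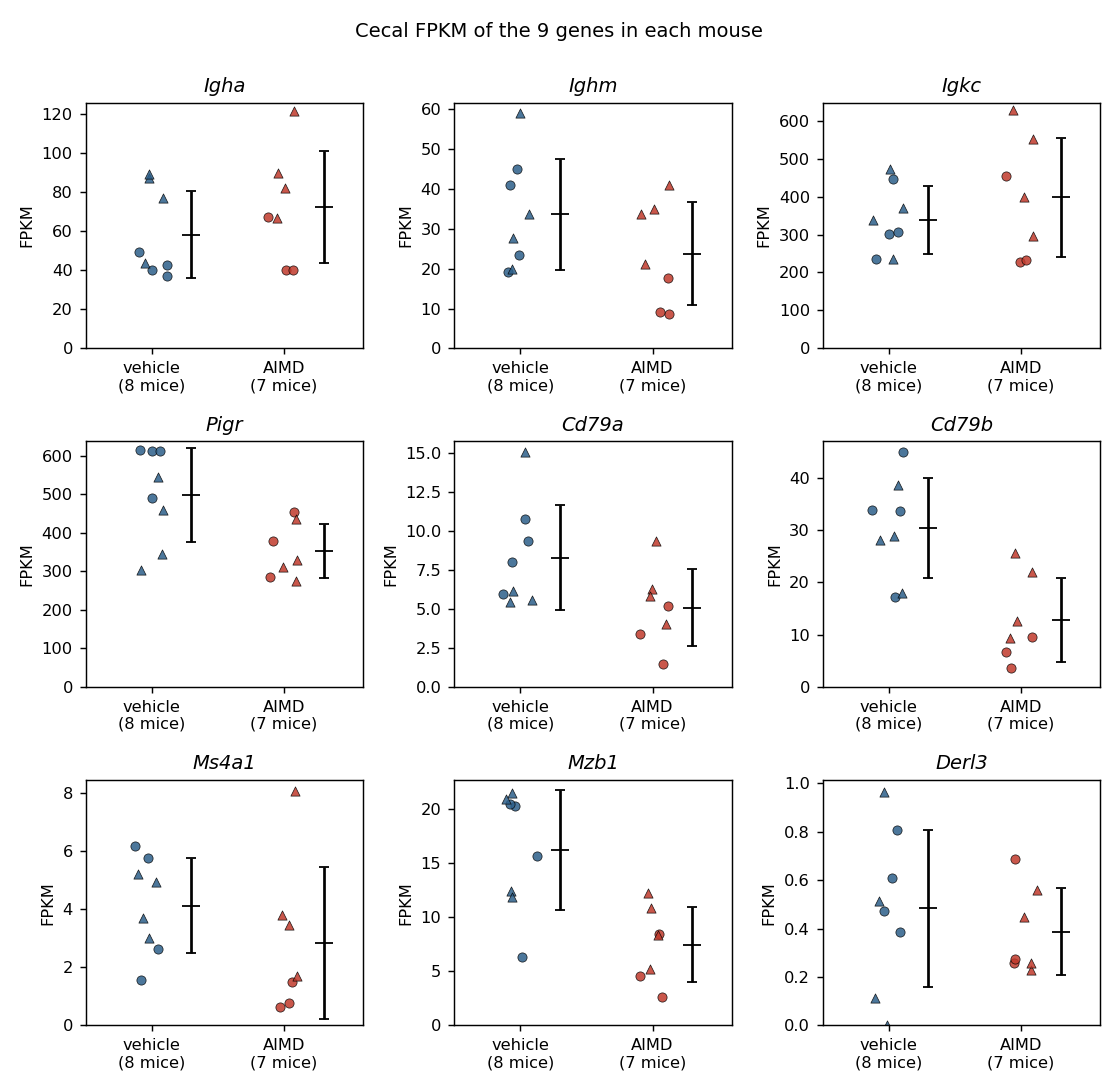
FPKM (vertical axes, linear, each from 0) of the 9 genes in 8 vehicle-treated (blue) and 7 AIMD (red) mice. Each point is a mouse, circles and triangles are the clock clusters A and B, and bars are mean ± SD. Cd79b and Mzb1 sit lower under AIMD with some overlap, and those of Igha and Igkc overlap.

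Cd79b encodes the beta signaling chain of the B-cell receptor. Under AIMD its FPKM had a lowest value of 3.64, a median of 9.49 and a highest value of 25.7, against 17.1, 31.3 and 44.9 under vehicle. The lowest 5 AIMD mice lay below every vehicle-treated mouse, and the other two reached into the vehicle range. The mean was 12.8 ± 8.10 (SD, n = 7) under AIMD and 30.4 ± 9.54 (SD, n = 8) under vehicle, which is 2.38 times as high. The log2 fold change was -1.39 ± 0.33 (SE; adjusted p = 0.00384 by limma), and it passed in each of 15 fits without 1 mouse, between -1.59 and -1.15. Each value rests on 91 to 535 reads. The gene is at 106311341 to 106314762 on the minus strand of chromosome 11 (GRCm38).

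Cd79a encodes the partner chain of the same receptor and is at 24897381 to 24902197 on chromosome 7. In AIMD mice it ran from 1.49 over a median of 5.21 to 9.35 FPKM, and under vehicle from 5.45 over 7.08 to 15.1. The values of 4 AIMD mice were under the vehicle range, and the rest overlapped. The mean was 5.09 ± 2.48 (SD, n = 7) against 8.29 ± 3.35 (SD, n = 8). The log2 fold change of -0.71 ± 0.29 (SE) lay just outside the threshold (adjusted p = 0.0586 by limma). It passed at an adjusted p of 0.0493 with quantile normalization, 0.044 with the clock cluster as a factor, 0.0405 with limma voom on reads recovered from the FPKM and 0.0222 without AIMD replicate 7 (-0.87). That was the 1 pass in 15 fits without 1 mouse, where the adjusted p ran up to 0.129. Of 26 other settings in all, those fits included, 20 left Cd79a outside the threshold.

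Both chains were also compared within each mouse. The log2 ratio of Cd79b to Cd79a had a lowest value of 0.809, a median of 1.05 and a highest of 1.73 under AIMD, and 1.33, 1.90 and 2.26 under vehicle. All 7 AIMD mice lay below the vehicle median, and 5 of them below every vehicle-treated mouse. The mean ratio was 1.15 ± 0.319 (SD, n = 7) against 1.83 ± 0.338 (SD, n = 8), a difference of -0.675 (two-sided exact permutation test, p = 0.00326, adjusted over 5 such values p = 0.0144). Within cluster A the difference was -0.896 (exact p = 0.0286, the smallest that 3 mice against 4 allow) and within cluster B -0.513 (exact p = 0.143).

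Ms4a1 encodes CD20, a surface protein of mature B cells that plasma cells lose, and is at 11249675 to 11266241 on the minus strand of chromosome 19. Its lowest, median and highest FPKM were 0.647, 1.70 and 8.07 under AIMD and 1.55, 4.32 and 6.17 under vehicle. AIMD replicate 7 was above all vehicle-treated mice, while 3 other AIMD mice were below all of them. The log2 fold change was -0.71 ± 0.38 (SE) and did not pass (adjusted p = 0.153 by limma). Without AIMD replicate 7 it was -0.99 and passed (adjusted p = 0.0281). That was the 1 pass in 15 fits without 1 mouse, where it ran from -0.99 to -0.51 and the adjusted p by limma ran up to 0.314.

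Ighm encodes the constant region of IgM, membrane-bound on B cells and secreted by some plasma cells, and is at 113418558 to 113422730 on the minus strand of chromosome 12. FPKM ranged from 8.71 over 21.1 to 41.0 under AIMD and from 19.3 over 30.7 to 59.1 under vehicle, so that 3 AIMD mice were below the vehicle range. The log2 fold change of -0.60 ± 0.34 (SE) did not pass (adjusted p = 0.171 by limma).

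Mzb1 encodes a chaperone of the endoplasmic reticulum that helps to assemble antibody in marginal zone B cells and plasma cells. In AIMD mice the lowest, median and highest FPKM were 2.59, 8.33 and 12.2, compared with 6.29, 18.0 and 21.5 under vehicle. All 7 AIMD mice lay below the vehicle median, and 6 of the 8 vehicle-treated mice were above every AIMD mouse. The mean was 7.46 ± 3.48 (SD, n = 7) under AIMD and 16.2 ± 5.55 (SD, n = 8) under vehicle. The log2 fold change was -1.12 ± 0.30 (SE; adjusted p = 0.0086 by limma) and passed in each of 15 fits without 1 mouse. The values rest on 41 to 158 reads per mouse. In GENCODE M21 57.2% of the exon bases of Mzb1 also belong to Spata24 on the same strand, so its level is uncertain. Spata24 itself had a log2 fold change of 0.23 (adjusted p = 0.485 by limma).

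Derl3 encodes a membrane protein that helps to remove misfolded proteins from the endoplasmic reticulum. It was near the limit of detection, with 0 to 12 reads per mouse, and did not pass the filter. Its lowest, median and highest FPKM were 0.228, 0.276 and 0.686 under AIMD and 0, 0.492 and 0.966 under vehicle, and the ranges overlapped. With no filter the log2 fold change was -0.09 (adjusted p = 0.779 by limma), and a difference was not detectable at this depth. The RefSeq promoter of Derl3 holds 1 match to the endoplasmic reticulum stress element, which is CCAAT and CCACG with 9 bases between them, found on either strand in 0.119% of 32817 promoters of 300 bases. The match is shown because genes of the secretory list carry the same element. It is at chr10:75893242-75893260 (GRCm38.p6), written along the plus strand, where it reads as the reverse complement, and capitals mark the whole match.
Derl3 element: CGTGGGACTTCCCCATTGG

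Igha encodes the constant region of IgA, the main antibody of the gut, and is at 113254830 to 113260236 on the minus strand of chromosome 12. Values ran from 40.1 over a median of 67.2 to 122 FPKM under AIMD and from 37.0 over 46.5 to 89.5 under vehicle. The ranges overlapped, with 2 AIMD mice above the highest vehicle-treated mouse. The mean was 72.6 ± 28.7 (SD, n = 7) against 58.3 ± 22.3 (SD, n = 8), and the log2 fold change of 0.30 ± 0.26 (SE) did not pass (adjusted p = 0.382 by limma).

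Igkc encodes the constant region of the kappa light chain, which pairs with any heavy chain, and is at 70726435 to 70726966 on chromosome 6. Its lowest, median and highest FPKM were 226, 399 and 627 under AIMD and 235, 322 and 473 under vehicle. The log2 fold change was 0.18 ± 0.23 (SE; adjusted p = 0.58 by limma). Jchain, which encodes the chain that joins IgA into dimers and was named after its values were seen, ran from 60.5 to 252 FPKM under AIMD and from 32.7 to 253 under vehicle (log2 fold change 0.34, adjusted p = 0.558 by limma). None of these 3 transcripts of secreted antibody passed the test.

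The antibody classes were compared within each mouse. IgA took 58.6% ± 9.85 (SD, n = 7) of the FPKM of 8 heavy-chain constant genes under AIMD and 40.9% ± 10.3 (SD, n = 8) under vehicle. Single mice lay between 41.5% and 68.3% against 26.1% and 52.1%, and 5 of the 7 AIMD mice were above every vehicle-treated mouse. The difference of 17.7 percentage points passed (two-sided exact permutation test, p = 0.00575, adjusted over 5 values p = 0.0144). It was 27.8 points within cluster A (exact p = 0.0571) and 8.50 within cluster B (exact p = 0.286). Ighm held 17.7% on average under AIMD and 22.9% under vehicle, Ighd 8.62% and 14.3%, and Ighg2b 7.80% and 13.6%.

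**Figure D2:**
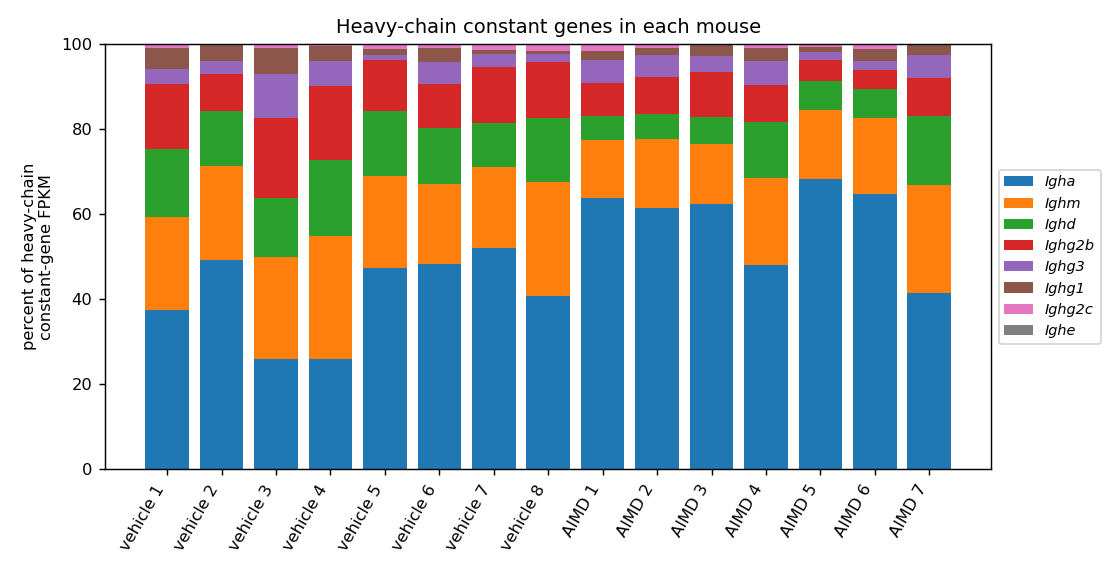
Percent of the summed FPKM of 8 heavy-chain constant genes (vertical axis, linear from 0) held by each gene, stacked per mouse. The Igha share at the bottom is 58.6% on average under AIMD and 40.9% under vehicle, with AIMD replicates 4 and 7 in the vehicle range.

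Of 10 further immunoglobulin constant genes 8 were tested, and the median log2 fold change was -0.38. Of the 8, 2 fell and 0 rose, where 16.6% of all tested genes fell and 19.4% rose. Ighd, the constant region of IgD on naive B cells, fell by 1.02 on the log2 scale (adjusted p = 0.0419 by limma). Ighg2b, an IgG constant region, fell by 1.02 as well (adjusted p = 0.0133). The kappa share of light-chain constant FPKM was 65.7% ± 14.8 (SD, n = 7) under AIMD and 74.4% ± 5.04 (SD, n = 8) under vehicle and did not pass (two-sided exact permutation test, p = 0.133). Iglc1, a lambda constant region named after its values were seen, ran from 5.69 to 409 FPKM under AIMD and from 10.2 to 84.3 under vehicle (adjusted p = 0.16 by limma). Of 344 variable segments 36 passed the filter on low values and 308 did not. Of the 36, 18 rose and 0 fell, where 19.4% of all tested genes rose. The segments summed to a median of 158 FPKM under AIMD and 34.9 under vehicle, so the filter was passed more readily through the AIMD group, and the count of 18 is a description.

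Set against a receptor chain in the same mouse, IgA stood higher. The log2 ratio of Igha to Cd79a ran from 2.77 to 4.36 under AIMD and from 1.93 to 3.73 under vehicle, and all 7 AIMD mice were above the vehicle median. Its mean was 3.75 ± 0.592 (SD, n = 7) against 2.74 ± 0.676 (SD, n = 8), a difference of 1.02 (two-sided exact permutation test, p = 0.0115, adjusted over 5 values p = 0.0192). Within cluster A it was 1.50 (exact p = 0.0286, the smallest possible) and within cluster B 0.537 (exact p = 0.314).

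Pigr encodes the polymeric immunoglobulin receptor, made by epithelial cells, and is at 130826684 to 130852249 on chromosome 1. The lowest, median and highest FPKM were 276, 329 and 453 under AIMD and 303, 518 and 613 under vehicle. All 7 AIMD mice lay below the vehicle median, and 6 vehicle-treated mice were above every AIMD mouse. Vehicle replicates 7 and 8, at 344 and 303, lay inside the AIMD range. The mean was 353 ± 71.1 (SD, n = 7) against 497 ± 122 (SD, n = 8), and the log2 fold change was -0.48 ± 0.18 (SE; adjusted p = 0.0452 by limma). The call was lost with no filter (adjusted p = 0.0855), with quantile normalization (-0.30, adjusted p = 0.191) and in 11 of 15 fits without 1 mouse (AIMD replicates 2, 3, 5, 6 and 7 and vehicle replicates 1, 2, 3, 4, 5 and 6), and over the 15 fits the adjusted p ran from 0.0102 to 0.097. The log2 ratio of Pigr to Igha was 2.35 ± 0.695 (SD, n = 7) under AIMD and 3.12 ± 0.836 (SD, n = 8) under vehicle and did not pass over all mice (two-sided exact permutation test, p = 0.0751, adjusted p = 0.0938).

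Promoter sequence is shown for Pigr, the member of the epithelium, and for Cd79a, the member of the B cell that RefSeq matched by symbol along with Derl3. The stretches run from 250 bases before the transcription start to 30 bases after it, at chr1:130826434-130826713 for Pigr and chr7:24897247-24897526 for Cd79a (GRCm38.p6, plus strand). Capitals mark matches on either strand to the E-box CACGTG and to AANNGAAA, the half-site of interferon regulatory factors, which reads as its reverse complement here.
Pigr promoter: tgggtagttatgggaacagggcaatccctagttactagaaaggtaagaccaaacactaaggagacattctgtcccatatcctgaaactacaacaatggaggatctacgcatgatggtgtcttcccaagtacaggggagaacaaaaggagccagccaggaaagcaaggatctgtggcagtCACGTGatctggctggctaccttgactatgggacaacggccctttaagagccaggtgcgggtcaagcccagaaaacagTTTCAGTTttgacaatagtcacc
Cd79a promoter: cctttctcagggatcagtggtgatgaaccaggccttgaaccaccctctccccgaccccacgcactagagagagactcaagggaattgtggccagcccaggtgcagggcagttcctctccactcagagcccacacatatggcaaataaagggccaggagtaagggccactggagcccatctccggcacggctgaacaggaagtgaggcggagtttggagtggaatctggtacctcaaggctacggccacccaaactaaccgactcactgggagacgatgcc

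Pigr held 1 E-box, found in 7.15% of 32817 promoters of 300 bases, and 1 interferon regulatory factor half-site, found in 23.9%. Cd79a held neither of these, nor the octamer ATGCAAAT (1.74% of promoters) or the EBF motif TCCCNNGGGA (0.905%). A match is a description of letters and not of a bound factor.

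Other B-cell genes mostly had negative fold changes. Of 25 listed genes 21 were tested, 8 fell, 0 rose and 20 had a negative log2 fold change, with a median of -0.73. Among all tested genes 16.6% fell and 19.4% rose. Vpreb3, a B-cell protein related to the surrogate light chain, fell by 1.44 on the log2 scale (adjusted p = 0.000783 by limma) and Ly6d, a lymphoid surface protein, by 1.37 (adjusted p = 0.000782). Tnfrsf13c, the receptor for the survival factor BAFF, fell by 1.14 (adjusted p = 0.011). Cd72, a surface co-receptor, fell by 0.98 (adjusted p = 0.00194), and 41.6% of its exon bases lie opposite those of Tesk1. With single mice left out the count was 5 without AIMD replicate 1 and 16 without AIMD replicate 7. It was 15 within clock cluster A, where 7.08% of all tested genes fell, and 2 within cluster B, where 9.47% fell. On the list of germinal center genes 4 of 7 tested fell and 1 rose. Fas, a death receptor, fell by 0.68 (adjusted p = 0.0429), Gcsam by 0.62 (adjusted p = 0.0373) and S1pr2, a receptor that confines B cells to the germinal center, by 0.53 (adjusted p = 0.016). Rgs13, a regulator of G-protein signaling that tuft cells also express, rose by 0.93 (adjusted p = 0.00767). Of the genes of lymphoid follicle stroma and lymphotoxin signaling 2 of 8 tested fell, where 16.6% of all tested genes fell. These were Madcam1, a vascular address protein, by 0.70 (adjusted p = 0.0023) and Lta, a lymphotoxin chain made by lymphocytes, by 0.64 (adjusted p = 0.0484). Both calls rest on few reads per mouse, 4 to 15 for Madcam1 and 2 to 27 for Lta. Madcam1 had a median of 0.411 FPKM under AIMD and a lowest value of 0.573 under vehicle. The vehicle values of Madcam1 alone met the filter on low values, so its fall is a description.

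Of 9 tested plasma cell genes, 2 rose and 0 fell, where 19.4% of all tested genes rose and 16.6% fell. The list had a median log2 fold change of 0.25. Sdc1, a surface proteoglycan, rose by 0.52 on the log2 scale (adjusted p = 0.0036 by limma) and Xbp1, a transcription factor of secretory cells, by 0.39 (adjusted p = 0.0147), and epithelial cells express both. Among 20 genes of the endoplasmic reticulum and secretion, 4 fell and 2 rose, to be set beside the same shares of all tested genes. Fkbp11, a folding enzyme, fell by 1.05 (adjusted p = 0.00218), Sec61b, a subunit of the translocon, by 0.77 (adjusted p = 0.00594) and Pdia6, a disulfide isomerase, by 0.63 (adjusted p = 0.0065). Dnajb9, a co-chaperone, rose by 0.62 (adjusted p = 0.0234). The stress element of Derl3 was matched in the promoters of 5 of 17 genes of this list and of 0 of 12 plasma cell genes.

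Of 11 tested genes of IgA induction and homing, 5 rose and 0 fell, where 19.4% of all tested genes rose and 16.6% fell. The list had a median log2 fold change of 0.46. Tnfsf13, which encodes the plasma cell survival factor APRIL, rose by 1.49 (adjusted p = 0.000396 by limma), and 60.1% of its exon bases are shared with the fusion gene Tnfsfm13. Its vehicle median was 0.258 FPKM, from a median of 3 reads, and its lowest AIMD value was 0.9545. The AIMD values of Tnfsf13 alone met the filter on low values, so its rise is a description. Tnfsf13b, which encodes BAFF, rose by 0.75 (adjusted p = 0.000497), Tgfbr2, a receptor for the cytokine of the IgA switch, by 0.82 (adjusted p = 0.000515), and Aldh1a1, an enzyme of retinoic acid synthesis, by 0.79 (adjusted p = 0.00348). Among regulators of Pigr and antibody receptors, 6 of 19 tested genes rose and 1 fell, with a median of 0.12. Il17rc, a receptor chain for interleukin 17, rose by 1.64 (adjusted p = 6.77e-05), Tfrc, the transferrin receptor, by 1.18 (adjusted p = 0.000878), Fcgr3, an antibody receptor of myeloid cells, by 0.94 (adjusted p = 0.00617), and Nfkb1, a subunit of NF-kB, by 0.94 (adjusted p = 0.00014).

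**Figure D3:**
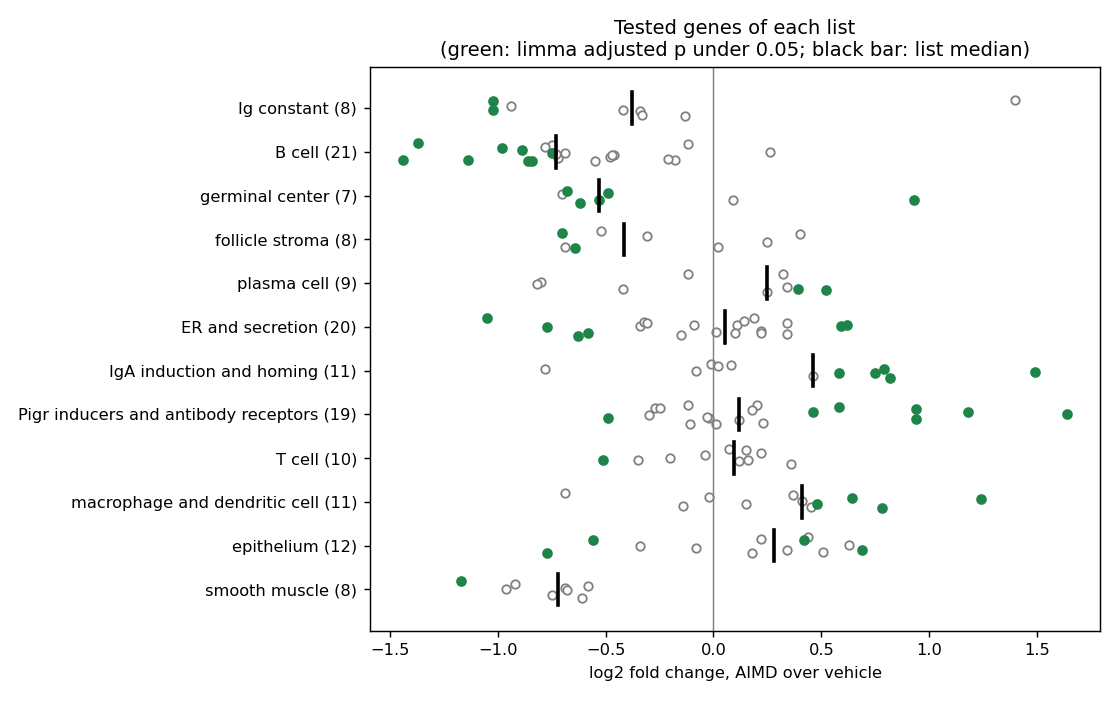
Log2 fold change (horizontal axis, AIMD over vehicle) of every tested gene of each list, with the number tested in parentheses. Green points have a limma adjusted p under 0.05 and black bars are list medians, which run from -0.73 for B-cell genes to 0.46 for IgA induction and homing genes.

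Markers of other cells were counted beside these, where 16.6% of all tested genes fell and 19.4% rose. Of 10 tested T-cell genes 1 (Lck) fell and 0 rose, and the list summed to 18.1 to 40.9 FPKM under AIMD and 19.2 to 36.4 under vehicle. Of 11 macrophage and dendritic cell genes 4 rose, led by Lyz2, and the sum was 88.9 to 257 FPKM against 67.6 to 111. Lyz2 alone averaged 113 FPKM under AIMD and 43.9 under vehicle, and without it the sum was 38.8 to 58.9 against 31.6 to 56.4. Of 12 epithelial genes 2 rose and 2 fell, and the sum was 27200 to 38680 FPKM against 24120 to 32860. Car1, named after its values were seen, alone averaged 26470 FPKM under AIMD and 22760 under vehicle, so this sum mostly follows 1 gene. Of 8 smooth muscle genes 1 (Tagln) fell and all 8 had a negative fold change, with a sum of 227 to 837 FPKM against 537 to 3154. In these 4 lists 0 genes were at 0 in all mice. Their part in the changes of the members was not tested.

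Within clock cluster A 5 members were called lower, where 7.08% of all genes were, and within cluster B 0 members, where 9.47% were. In cluster A the FPKM of Cd79b was 6.62 ± 2.93 (SD, n = 3) under AIMD and 32.3 ± 11.5 (SD, n = 4) under vehicle, a log2 fold change of -2.22 ± 0.34 (SE; adjusted p = 0.00307 by limma). Ms4a1 had -1.51 (adjusted p = 0.0263), Mzb1 -1.50 (adjusted p = 0.0374), Ighm -1.39 (adjusted p = 0.0191) and Cd79a -1.32 (adjusted p = 0.0208). In cluster B, Cd79b had -0.75 (adjusted p = 0.123), Mzb1 -0.84 (adjusted p = 0.0612), Cd79a -0.24 (adjusted p = 0.636), Ms4a1 -0.13 (adjusted p = 0.819) and Ighm -0.03 (adjusted p = 0.959). Igha had 0.18 (adjusted p = 0.58) in cluster A and 0.30 (adjusted p = 0.438) in cluster B, and Igkc had -0.12 (adjusted p = 0.796) and 0.39 (adjusted p = 0.352), so that its sign differed between them. Pigr had -0.66 (adjusted p = 0.0519) in cluster A and -0.27 (adjusted p = 0.427) in cluster B. An interaction term for the difference between clusters, added after the data were seen, called 0 genes by limma, with 534 of 11971 at an unadjusted p under 0.05. Among the members its smallest unadjusted p was 0.0138, for Cd79b, and every adjusted p was at least 0.993.

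**Figure D4:**
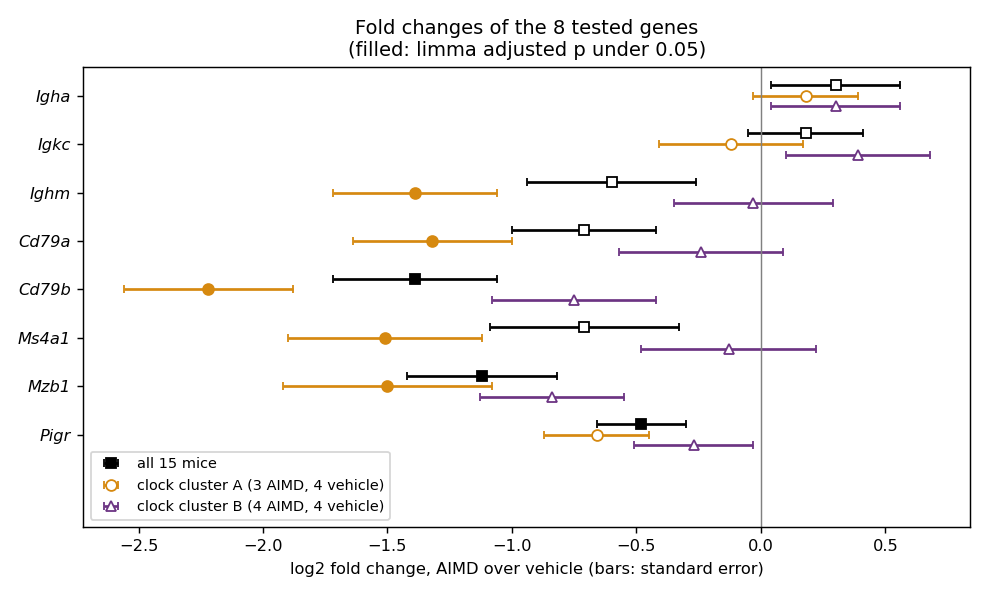
Log2 fold change (horizontal axis, AIMD over vehicle, bars are standard errors) of the 8 tested genes over all 15 mice and within each clock cluster, with filled symbols for a limma adjusted p under 0.05. Cd79b is at -2.22 in cluster A and -0.75 in cluster B, a difference that did not pass the interaction test.

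The members were also compared in how they varied among mice, with log2 values centred within the treatment groups over 15 mice and 36 pairs in all. Cd79a and Cd79b had a Pearson r of 0.89 and a Spearman rho of 0.89 (100000 within-group permutations, p = 3e-05 and 9e-05, adjusted over 36 pairs p = 0.00036 and 0.00108). Without the 2 mice farthest from the median of Cd79a, r was 0.88, and with values centred also within the clock clusters it was 0.84. Ighm and Cd79b had r = 0.90 and rho = 0.91 (permutation p = 2e-05 and 1e-05, the latter the smallest possible, adjusted p = 0.00036 for both), with r = 0.86 without the 2 farthest mice and 0.83 centred within clusters. Igha and Igkc had r = 0.78 and rho = 0.79 (permutation p = 0.00141 and 0.00113, adjusted p = 0.00564 and 0.00678), with r = 0.76 without the 2 farthest mice and 0.84 centred within clusters. Igha and Cd79a had r = 0.41 and rho = 0.37 and did not pass (permutation p = 0.155 and 0.195, adjusted p = 0.242 and 0.293). Of all pairs 14 passed by r and 15 by rho, and neither Pigr nor Derl3 was in any of them.

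**Figure D5:**
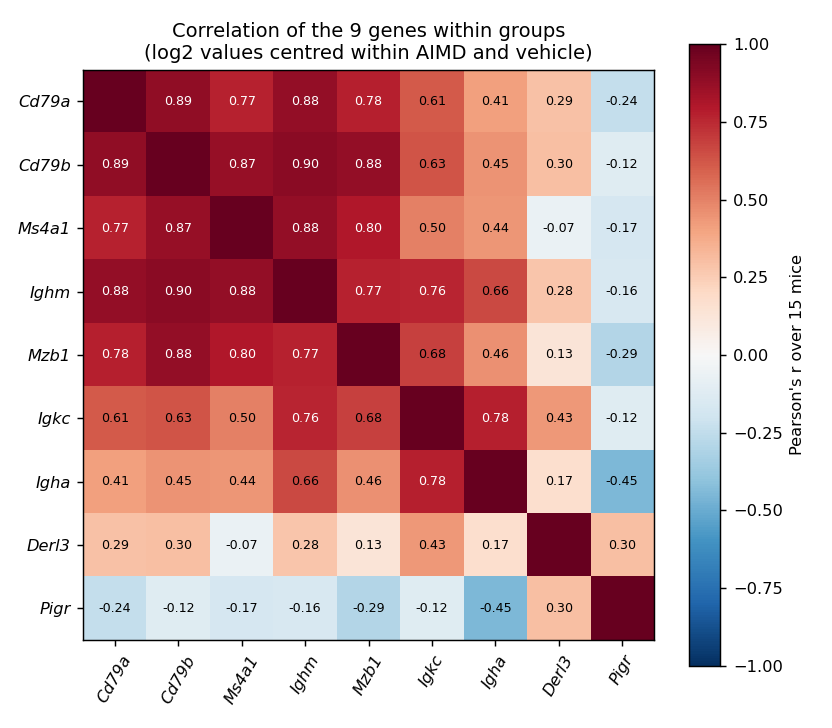
Pearson's r (color and printed value, from -1 to 1) for each pair of the 9 genes over 15 mice, with log2 values centred within the AIMD and vehicle groups. Cd79a, Cd79b, Ms4a1, Ighm and Mzb1 have r of 0.77 to 0.90 with each other. The r of Pigr runs from -0.45 with Igha to 0.30 with Derl3.

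The most similar genes are given as a description over 15 mice, whose depths differed and whose values were centred within groups only. For each member they are among the 3 with the most similar centred values, out of 10904 genes outside the immunoglobulin and predicted-gene symbols. Among those of Cd79a were Blk (r = 0.94), a kinase of the B-cell receptor, and Arhgdib (0.92). Cd79b was closest to H2-DMb2, Fcer2a and Fcrla (0.96 each), and Ighm to Pou2af1, Rac2 and Lcp1 (0.96 each). Ms4a1 was closest to Cd53 (0.97), Rasgrp3 (0.96) and Srgn (0.95), and Mzb1 to Cd52 and Tspan32 (0.93 each) and Lat2 (0.89). Igha was closest to Fcgr3 (0.88), Cd274 (0.84) and Apoe (0.81), and Igkc to the antigen presentation genes H2-Aa and H2-Q6 (0.81 each) and H2-Ab1 (0.80). Pigr was closest to Stxbp6 and Slc31a1 (0.94 each) and Rassf6 (0.92), and Derl3 to Vps33a (0.77), Sugp1 and Rttn (0.76 each).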

How the data were processed

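Stranded poly-A libraries of cecal RNA were read as single 50-base reads. The authors mapped them to GRCm38 with STAR, counted with featureCounts and deposited FPKM by gene symbol, 1 column per mouse. The submitters' processing notes also name DESeq2, and tool versions are not given in the sources used here. Groups come from the labels. The members and gene lists were chosen with earlier results of these data known. Of 45808 rows, 4 with repeated symbols were dropped. Whole reads were recovered for 100% of 24279 genes (tolerance 0.05 read), which gives each mouse's depth and limits the precision of low genes. After scaling by size factors (1.01 in every mouse) and adding 0.5, limma 3.58.1 in R 4.3.3 (lmFit, eBayes, trend) compared genes that reached an FPKM of 0.5 in 7 or more mice. Fold changes of low genes are understated on this scale. Single values used two-sided exact permutation over 6435 splits (smallest p 0.000155). Clock clusters came from k-means in scikit-learn 1.9.0, under Python 3.11.15. Gene positions follow GENCODE M21 (GRCm38). The fit was also tested on simulated data. Named genes are the members, up to 4 called genes per list by size of change, and the 3 most similar genes per member, and any other gene is marked. A gene under this rule is not reported here, and counts include it. The alternatives were pseudocounts, filters, scalings, a replicate block, clock clusters, limma voom on recovered reads and leaving out each mouse. The interaction term and voom with no filter were added once the data had been seen.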

Additional observations from a re-analysis of the deposited data

Results flagged for a closer look

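Ms4a1 in AIMD replicate 7 was 8.07 FPKM, far from the next AIMD mouse at 3.80. Its gap to that mouse was 0.574 of the range of the group, above the critical value for 7 mice. In all 28 groups of values were examined in this way, and chance alone marks about 1 in 20. Without this mouse, Ms4a1 (adjusted p = 0.0281 by limma) and Cd79a (adjusted p = 0.0222) passed the threshold. For both genes this was the 1 pass in 15 fits without 1 mouse.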

How the results depend on the processing

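Of 329 values under other settings, 269 kept direction and side of the threshold or, for a count, stayed within 1.50 times the main count. The same held for 441 of 495 values with 1 mouse left out. The other settings include the FPKM as deposited, which could hardly differ from the main fit. The size factor was 1.01 in every mouse. In cluster A 2 values changed sign, neither passing there or over all mice, with Igkc at -0.12 and the kappa share difference at 1.10 percentage points. The counts of called genes are given here. Over all mice 16.6% of all tested genes were called lower and 19.4% higher. Within cluster A 7.08% were called lower, and within cluster B 9.47%. For the other settings no such share is given, so their counts are a description. The members called lower were 3, with 5 in cluster A, 0 in cluster B and 2 to 4 with 1 mouse left out. The list genes called lower were 21, with 32 with the clock cluster as a factor, 32 with voom and no filter, 6 in cluster B and 13 to 31 with 1 mouse left out (13 without AIMD replicate 1). The list genes called higher were 16, with 9 in cluster A and 10 in cluster B. B-cell genes lower were 8, with 5 with no filter, 14 with the clock factor, 14 with voom, 15 with voom and no filter, 15 in cluster A, 2 in cluster B and 5 to 16 with 1 mouse left out. Immunoglobulin constant genes lower were 2, with 1 with no filter, 0 in cluster B and 1 to 3 with 1 mouse left out (1 without AIMD replicate 1, 2, 3 or 5 or vehicle replicate 1, 3, 4, 6 or 8); higher were 0, with 1 in cluster B and 0 to 1 with 1 mouse left out (1 without AIMD replicate 3). Germinal center genes lower were 4, with 2 with no filter, 2 in cluster A, 0 in cluster B and 2 to 5 with 1 mouse left out (2 without AIMD replicate 1, 2, 3, 5 or 6 or vehicle replicate 1, 3 or 7); higher were 1, with 0 in cluster A. Follicle stroma genes lower were 2, with 1 at a pseudocount of 1, 1 with the replicate block, 1 in cluster B and 1 to 3 with 1 mouse left out (1 without AIMD replicate 1, 3, 4 or 6 or vehicle replicate 1, 3, 4 or 8); higher were 0, with 1 with no filter and 1 with voom and no filter. Plasma cell genes lower were 0, with 2 with the clock factor, 2 in cluster A, 2 with voom, 1 with voom and no filter and 0 to 1 with 1 mouse left out (1 without AIMD replicate 4 or 7 or vehicle replicate 1, 2 or 5); higher were 2, with 0 in cluster A and 1 in cluster B. Secretion genes lower were 4, with 1 in cluster A; higher were 2, with 4 with the clock factor and 0 in cluster B. IgA induction genes higher were 5, with 3 in cluster A and 3 in cluster B. Regulators of Pigr lower were 1, with 0 in both clusters and 0 to 2 with 1 mouse left out (2 without AIMD replicate 4, 0 without AIMD replicate 5 or 6).

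Of the single values, the IgA share difference was 27.8 points in cluster A and 8.50 in cluster B, neither of which passed. The log2 ratio of Igha to Cd79a differed by 0.987 with the replicate block and 0.537 in cluster B and did not pass, that of Cd79b to Cd79a by -0.513 in cluster B and did not pass, and that of Pigr to Igha by -0.974 with the block and -0.842 in cluster A and passed. With 1 mouse left out, the Pigr to Igha difference ran from -0.974 to -0.626 (passing without AIMD replicate 1 or vehicle replicate 7 or 8) and the kappa share difference from -11.7 to -4.00 (-11.7 without AIMD replicate 3, which passed). The causes were not tested. The replicate block joins mice of the same number, whose deviations correlated between -0.35 and 0.432, so that the numbers were not taken as pairs, and with the block Pigr had -0.57 (adjusted p = 0.0124 by limma), Cd79b -1.33 and Mzb1 -1.05, all called. Derl3 had 0 to 12 reads per mouse, which limits what its values can show.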
